A study of Mus musculus with 27 samples.

Results

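The genes described are 10 mouse genes of ErbB receptor signalling and its feedback control, namely the receptor genes Egfr, Erbb2 and Erbb3 and the inhibitor genes Errfi1, Dusp1, Dusp6, Spry2, Spry4, Spred1 and Spred2. They were taken by gene name from a table of 45706 genes, where each of the 10 names had 1 row. The table gives normalised read counts per gene from messenger RNA of whole liver in 27 libraries of wild-type mice of the strain labelled C57/BLN6. In 4 groups the mice had been fasted for 16 h and then refed for 30, 60, 120 or 240 min. In 4 further groups they had been fasted for 16 h and then offered food inside a small cage for 30, 60, 120 or 240 min, which they could perceive but not eat (caged food). The control mice had been fasted for 16 h only. Each of the 9 groups has 3 libraries, which the series describes as biological replicates, and the labels give neither age nor sex and do not say whether a library holds 1 animal or several.

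ErbB receptors are receptor tyrosine kinases at the cell surface. EGFR binds EGF, TGF-alpha and related ligands, ErbB3 binds neuregulins and has little kinase activity of its own, and ErbB2 has no known ligand and acts as a partner of the others. Active receptors recruit adaptors that switch on Ras and the kinase cascade that ends in ERK, and in hepatocytes this route is known for its part in growth, regeneration and metabolic control. ERK and other inputs in turn raise transcripts of inhibitors: ERRFI1 (MIG6) blocks the EGFR kinase domain, DUSP1 and DUSP6 are phosphatases of MAP kinases, and the Sprouty and SPRED proteins restrain this route near Ras.

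Hepatocyte marker transcripts summed to between 4089698 and 7196225 normalised read counts in all libraries, so the labelled tissue was carried by its markers. The depth behind the values, estimated from the spacing of low values, was 25.5 to 52.5 M reads per library. Some libraries, 3 in all, stood apart in transcripts of other cells. Refed 30 min replicate 1 did so in exocrine pancreas markers (sum 5774, against 311 to 685 in all the others). Caged food 30 min replicate 1 did so in sinusoidal endothelial markers (38206, next highest 31423) and was also highest in stellate cell markers (34370). Caged food 60 min replicate 2 did so in Kupffer cell markers (41909, next highest 26339) and was also highest in leukocyte (2590) and cholangiocyte (2027) markers. For 2 libraries the title and the treatment label disagree: refed 240 min replicate 3 is labelled caged food under treatment, and caged food 240 min replicate 1 is labelled refed. Both were grouped by title. On a score over 200 genes, chosen at 120 min and signed towards refed, the library titled refed had 0.496, beside 0.769 and 0.571 in the other refed libraries, and the library titled caged food had -0.639, beside -0.611 and -0.587. Results at 240 min are given with and without these libraries.

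Expressed per kilobase of exon, so that genes can be set against each other, the 10 transcripts lay far apart in fasted liver. Errfi1 was by far the most abundant, at 20144 ± 2950 normalised read counts per kb (mean ± SD, n = 3), rank 93 of 15869 genes tested with an exon length. Egfr (1988 ± 208, rank 845) and Erbb3 (1766 ± 153, rank 948) followed at nearly equal levels. Erbb2 had 18.9 ± 2.47 per kb (rank 11765), the lowest mean of the members, and the remaining ErbB receptor gene, Erbb4, had 5.45 ± 1.22 per kb (rank 13965). The feedback genes lay between: Dusp6 at 387 ± 94.5 per kb, Dusp1 at 223 ± 8.88, Spred2 at 127 ± 14.4, Spred1 at 65.2 ± 2.09, Spry4 at 51.4 ± 11.1 and Spry2 at 25.2 ± 5.28. In whole liver a level is a mean over cell types, and fewer cells of a type cannot be told apart from less of the transcript per cell.

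**Figure D1:**
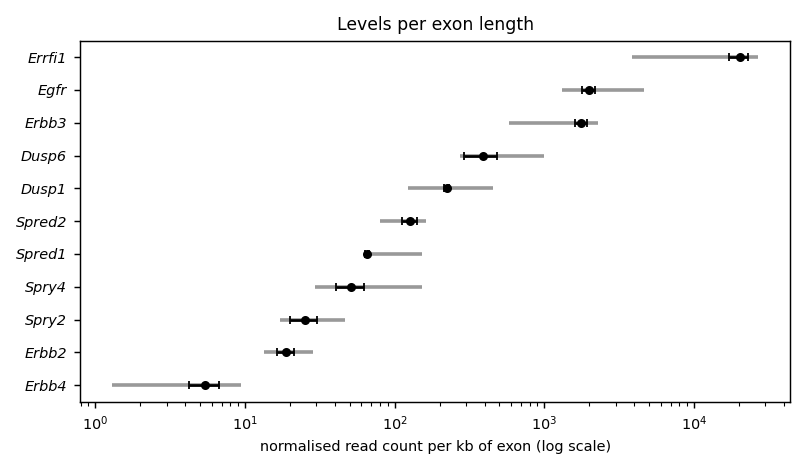
Normalised read counts per kb of exon (log scale) of the 10 genes and Erbb4: black points with bars are the mean and SD of 3 fasted livers, grey lines run from the lowest to the highest of all 27 libraries. Errfi1 lies highest at 20144 per kb in fasted liver, Egfr and Erbb3 lie near each other at 1988 and 1766, and Erbb2 lies near the bottom at 18.9.

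After refeeding some members fell, led by Erbb3 and Errfi1, and others rose, led by Dusp6 and Spred1, while Egfr, Erbb2 and Spry2 were called in no comparison. Against fasted livers, none of the 10 was called at 30 min, 4 were called at 60 min, 5 at 120 min and 4 at 240 min. A gene was called where limma, fitted over all 15932 genes tested, gave a Benjamini-Hochberg adjusted p under 0.05, and a gene that was not called is not shown to be unchanged. Of all genes tested, 1.63% were called at 30 min, 11% at 60 min, 14.1% at 120 min and 24.3% at 240 min. The members' shares at 60, 120 and 240 min were thus above the background, by the least at 240 min. The members were chosen with earlier results of these data known, and with 10 genes no more is read from this. At 30 min 3 members and 1812 of all genes had an unadjusted p under 0.05.

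The calls ran in both directions at each later time. At 60 min 2 members were higher (background 7.26%) and 2 lower (3.75%), at 120 min 2 were higher (7.95%) and 3 lower (6.13%), and at 240 min 2 were higher (12.9%) and 2 lower (11.4%). At 30 min, where no member was called, 1.31% of all genes were higher and 0.326% lower. The median log2 fold change of the members was 0.27 at 30 min, -0.02 at 60 min, -0.06 at 120 min and -0.20 at 240 min, where the median over all genes stayed within 0.02 of 0. Livers of mice with caged food had no called member against fasted livers at any of the 4 times. In these comparisons 0.0126%, 0.220%, 0.0377% and 0.00% of all genes were called at 30, 60, 120 and 240 min. An unadjusted p under 0.05 was had by 1, 1, 1 and 0 members and by 1123, 1569, 1226 and 752 of the 15932 genes tested. Against caged food livers of the same time, refed livers had 0 called members at 30 min (background 0.276%), 2 at 60 min (10.9%), 3 at 120 min (11.3%) and 5 at 240 min (27%). Of these, 0, 1, 0 and 3 members were higher (background 0.207%, 6.73%, 5.98% and 14.6%) and 0, 1, 3 and 2 lower (0.0690%, 4.18%, 5.30% and 12.4%). All refed groups and all caged food groups were set against the same 3 fasted libraries, so the 2 sets of comparisons are not independent.

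Libraries of the groups did not overlap for 7, 4, 6 and 7 members in refed against fasted livers at 30, 60, 120 and 240 min, where this held for 21.9%, 27.7%, 36.0% and 43.2% of all genes. In refed against caged food livers it held for 2, 4, 5 and 7 members (11.7%, 21.9%, 29.7% and 41.7% of all genes), and in caged food against fasted livers for 2, 1, 2 and 0 members (12.7%, 14.7%, 16.1% and 13.8%). The members without overlap at 30 min of refeeding were Erbb3, which was lower than in fasted livers, and Errfi1, Dusp1, Dusp6, Spry2, Spry4 and Spred1, which were higher, though none was called.

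**Figure D2:**
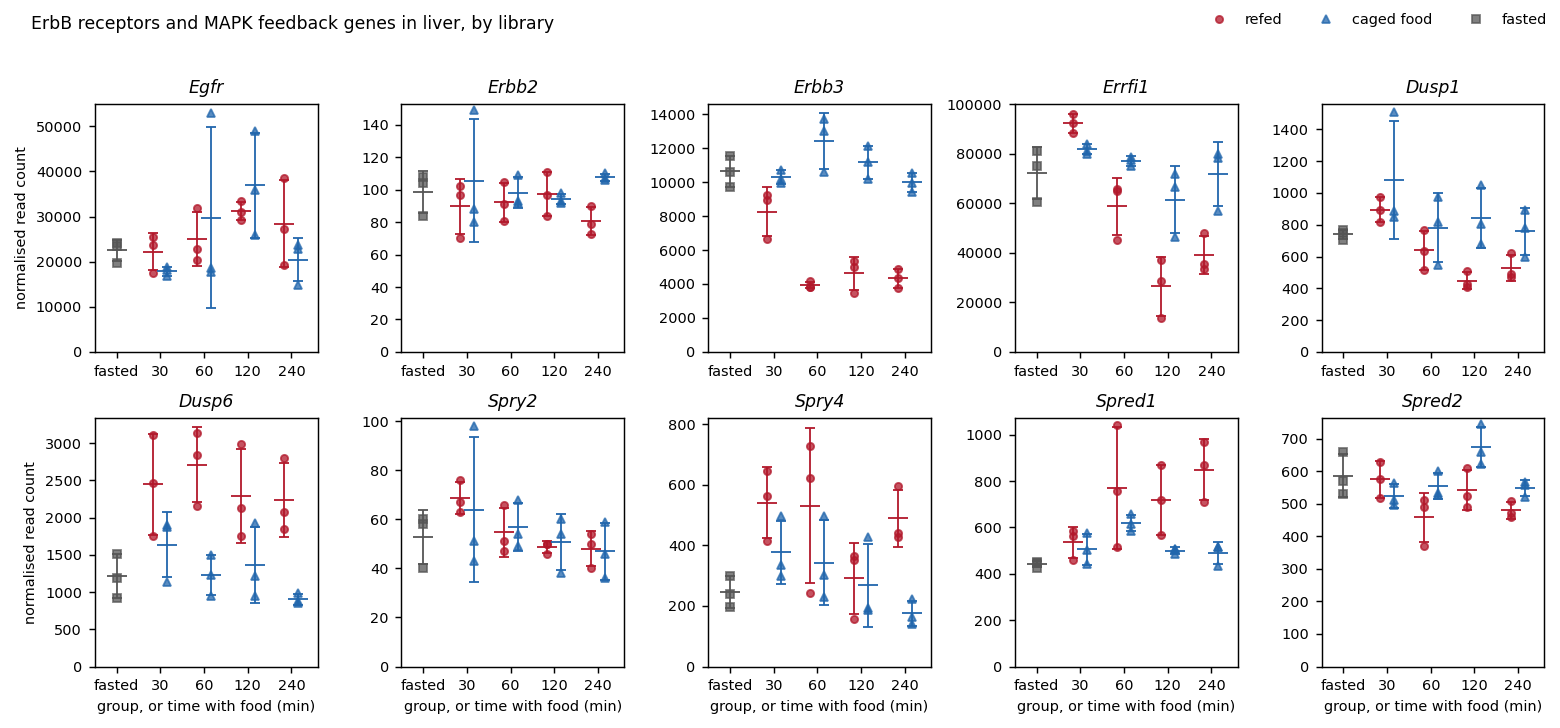
Normalised read counts of each gene in each of the 27 libraries (y axis, from 0) by time with food in min, with the fasted livers at the left of each panel: red circles are refed, blue triangles caged food, grey squares fasted, and the bars are mean ± SD of 3 libraries. Erbb3 in refed livers lies at 3497 to 5344 from 60 min on, below all caged food and fasted livers, and Errfi1 in refed livers is lowest at 120 min, at 13700 to 37293.

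**Figure D3:**
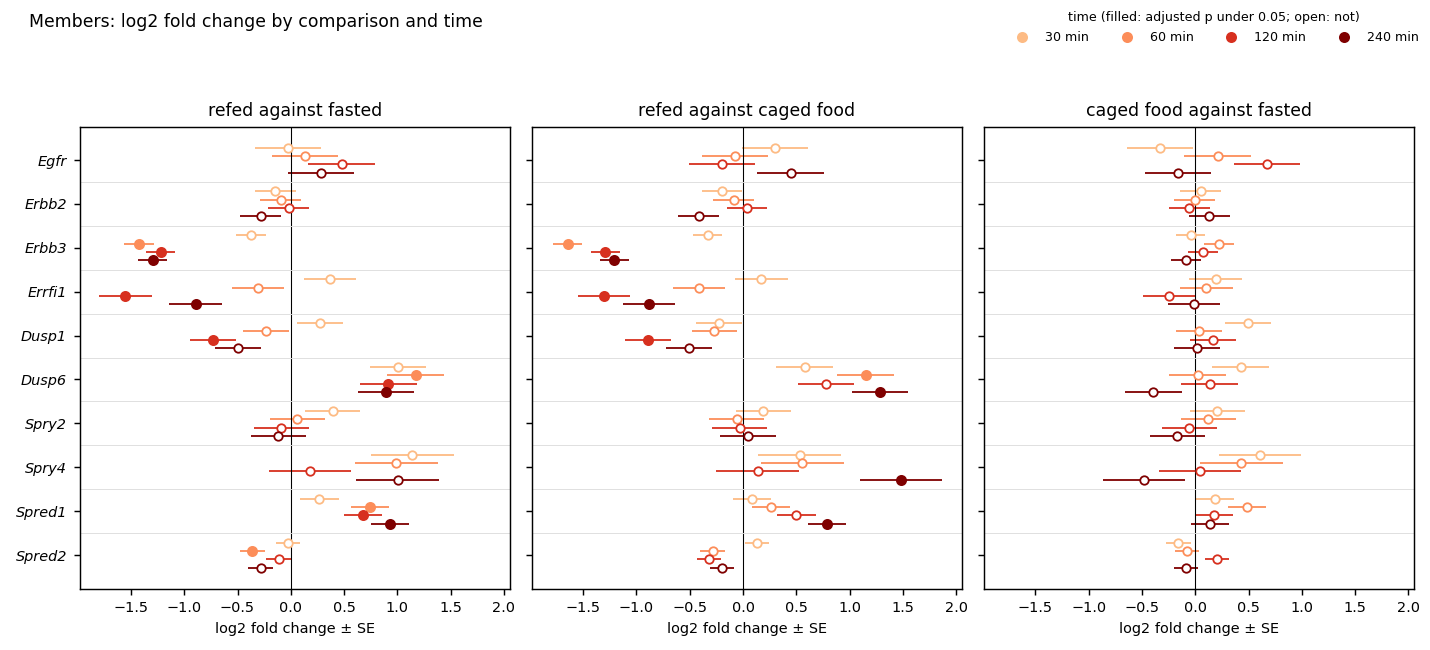
Log2 fold change ± standard error (x axis) of each gene in refed against fasted, refed against caged food and caged food against fasted livers, with the 4 times from light to dark; filled points were called at an adjusted p under 0.05. Erbb3 and Errfi1 lie left of 0 and Dusp6 and Spred1 right of 0 in both comparisons of refed livers at 120 and 240 min, and no point is filled in caged food against fasted livers.

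Erbb3 encodes the neuregulin-binding receptor (ENSMUSG00000018166, chr10:128567523-128589652, minus strand, GRCm38). It had the smallest adjusted p of the 10 genes and fell to well under the level of fasted livers within 60 min of refeeding. At 60 min its normalised read count was 4164, 3846 and 3836 in refed livers, 13006, 13724 and 10566 in caged food livers and 9722, 10587 and 11559 in fasted livers. Each refed library was thus below each of the others. The mean was 3949 ± 187 in refed and 10623 ± 919 in fasted livers (SD, n = 3 each), 2.69-fold lower after refeeding, with a log2 fold change of -1.42 ± 0.14 (SE; limma adjusted p = 4.87e-07). It was 3.13-fold lower than in caged food livers at 60 min (-1.65 ± 0.14, limma adjusted p = 5.07e-08).

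The low level of Erbb3 then held. At 120 min it stood at 5344, 3497 and 5020 in refed livers and at 10186, 12125 and 11166 in caged food livers. At 240 min it stood at 3775, 4902 and 4331 in refed livers and at 10560, 9429 and 9937 in caged food livers. Refed and caged food libraries did not overlap at either time. Against fasted livers the log2 fold change was -1.22 ± 0.14 at 120 min (limma adjusted p = 3.05e-06) and -1.30 ± 0.14 at 240 min (limma adjusted p = 4.09e-07). The difference from caged food livers was -1.29 ± 0.14 at 120 min (limma adjusted p = 1.37e-06) and -1.21 ± 0.14 at 240 min (limma adjusted p = 9.45e-07). Without the 2 libraries of conflicting labels the values at 240 min were -1.30 ± 0.16 against fasted (limma adjusted p = 6.61e-06) and -1.17 ± 0.18 against caged food livers (limma adjusted p = 8.02e-05).

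At 30 min Erbb3 was not called. Its normalised read count was 9214, 6624 and 8947 in refed livers, each already below the lowest fasted liver, and the log2 fold change was -0.37 ± 0.14 (limma adjusted p = 0.238). An F test in the same fit asked whether the refed minus caged food difference varied over the 4 times, and it called 9.97% of all genes and 2 of the 10 members. Erbb3 was one of them (F = 16.3, limma adjusted p = 6.25e-04), with a difference of -0.33 at 30 min and of -1.65 at 60 min. In order of mean level, the 3 refed groups from 60 min on came lowest, at 3949 to 4620, then refed 30 min at 8262, then the caged food and fasted groups at 9975 to 12432. Neighbours in this order overlapped except between refed 120 min and refed 30 min and between refed 30 min and caged food 240 min.

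Egfr encodes the receptor of EGF and TGF-alpha (ENSMUSG00000020122, chr11:16752203-16918158, plus strand). In none of the 12 comparisons was it called, and its log2 fold changes ran from -0.33 to 0.67 with a standard error of 0.31. Refed livers averaged 22261 ± 4175, 25016 ± 6006, 31232 ± 2089 and 28404 ± 9631 at 30, 60, 120 and 240 min, and fasted livers averaged 22512 ± 2354 (SD, n = 3 each). The refed 120 min libraries, at 29206, 33379 and 31110, were each above the fasted ones, at 24156, 19815 and 23565, yet the difference of 0.48 ± 0.31 did not pass the test (limma adjusted p = 0.348).

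The largest difference of Egfr was in caged food livers at 120 min, which had 49018, 25843 and 36008 (0.67 ± 0.31 against fasted, limma adjusted p = 0.629). Its single highest value, 52883, was in caged food 60 min replicate 2, where the other 2 libraries of the group had 17763 and 18584. That library is the one with the high Kupffer cell marker sum. Its leukocyte (2590) and cholangiocyte (2027) marker sums were also the highest of all libraries. The part of these cells in the value was not tested. All neighbouring groups overlapped in the order of Egfr levels.

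Erbb2 encodes the receptor without a ligand of its own (ENSMUSG00000062312, chr11:98412470-98437716, plus strand). It had between 70 and 149 normalised read counts in all libraries, and no comparison was called. Refed livers averaged 89.7 ± 17.2, 92.3 ± 12.1, 97.3 ± 13.5 and 80.7 ± 8.62 at 30, 60, 120 and 240 min, and fasted livers averaged 98.7 ± 12.9 (SD, n = 3 each). The difference of lowest p was at 240 min, with 90, 79 and 73 in refed livers and 106, 107 and 110 in caged food livers (-0.42 ± 0.19, limma adjusted p = 0.113). The groups did not overlap there, as was so for 41.7% of all genes. The highest value, 149, was in caged food 30 min replicate 1, the library with high endothelial markers. Exons of Erbb2 share 9 bases with Mien1 on the opposite strand.

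Errfi1, the gene of the EGFR kinase inhibitor (ENSMUSG00000028967, chr4:150853919-150868892, plus strand), was highest at 30 min of refeeding and lowest at 120 min. At 120 min its normalised read count was 37293, 28521 and 13700 in refed livers, 71705, 66534 and 46282 in caged food livers and 74890, 81089 and 60489 in fasted livers. The refed libraries lay below all the others, with a wide spread among themselves. The mean of 26505 ± 11925 in refed livers was 2.93-fold lower than the 72156 ± 10569 of fasted livers (SD, n = 3 each; log2 fold change -1.55 ± 0.25, limma adjusted p = 1.21e-04). Caged food livers averaged 61507 ± 13436, and refed livers were 2.47-fold lower (-1.31 ± 0.25, limma adjusted p = 9.67e-04). The difference from caged food livers was not called when only the groups compared were fitted (limma adjusted p = 0.0542).

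By 240 min Errfi1 stood at 33652, 47820 and 35601 in refed livers, again below all caged food (78329, 79932 and 57007) and fasted libraries. It was 1.86-fold lower than in fasted livers (-0.89 ± 0.25, limma adjusted p = 0.00953) and 1.84-fold lower than in caged food livers (-0.88 ± 0.25, limma adjusted p = 0.00948). Without the 2 libraries of conflicting labels the first was -0.84 ± 0.28 (limma adjusted p = 0.0412) and the second was no longer called (-0.75 ± 0.31, limma adjusted p = 0.0977). Neither difference was called without refed 240 min replicate 1 (limma adjusted p = 0.0535 against fasted and 0.0518 against caged food).

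In the first hour no difference of Errfi1 was called. At 30 min refed livers had 92392, 88346 and 96027, above each of the caged food libraries, at 80022, 81249 and 84078, and each of the fasted ones. These differences were 0.17 ± 0.25 and 0.36 ± 0.25 (limma adjusted p = 0.930 against caged food and 0.648 against fasted). At 60 min it had 45340, 65838 and 65106 in refed livers, each below each of the caged food libraries, at 74936, 78689 and 77581 (-0.41 ± 0.25, limma adjusted p = 0.330). Against fasted livers the difference at 60 min was -0.31 ± 0.25 (limma adjusted p = 0.519). The F test over time called Errfi1 (F = 6.70, limma adjusted p = 0.0287), but not when the 3 libraries that stood apart were left out (limma adjusted p = 0.0893) or the 2 of conflicting labels (0.0549), not with no filter on low values (0.0530), nor in 5 of the fits without a single library (limma adjusted p of 0.0522 to 0.0620). In order of mean level, refed 120, 240 and 60 min came lowest, and the highest 3 groups, caged food 60 min, caged food 30 min and refed 30 min, did not overlap with each other.

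Dusp1 encodes a nuclear phosphatase of p38, JNK and ERK (ENSMUSG00000024190, chr17:26505590-26562128, minus strand). Like Errfi1, it was lowest at 120 min of refeeding, with 507, 407 and 428 normalised read counts in refed livers, 802, 677 and 1049 in caged food livers and 707, 748 and 764 in fasted livers. Refed libraries again lay below all the others. The mean of 447 ± 52.7 in refed livers was 1.66-fold lower than 740 ± 29.4 in fasted livers (SD, n = 3 each; -0.73 ± 0.21, limma adjusted p = 0.0241) and 1.86-fold lower than 843 ± 189 in caged food livers (-0.89 ± 0.21, limma adjusted p = 0.00735). Against fasted livers the call was lost without any one of 5 of the 6 libraries compared (limma adjusted p of 0.0507 to 0.0904), and against caged food livers without caged food 120 min replicate 3 (0.0540).

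At 240 min Dusp1 was not called in either comparison (-0.49 ± 0.21 against fasted, limma adjusted p = 0.101, and -0.51 ± 0.21 against caged food, 0.0835), with 490, 474 and 623 in refed livers. With only the groups compared in the fit, both were called (limma adjusted p = 0.00967 against fasted and 0.0367 against caged food). At 30 min it had 894, 818 and 972 in refed livers, 1506, 887 and 849 in caged food livers and 707, 748 and 764 in fasted livers, and neither difference from fasted livers was called. The value of 1506 was in the caged food library with high endothelial markers. Without the libraries that stood apart, the caged food difference at 30 min was 0.23 in place of 0.50, and neither was called. In order of mean level, refed 120, 240 and 60 min came lowest, at 447, 529 and 638, and caged food 30 min highest, at 1081, with overlap between all neighbours. Exons of Dusp1 share 11 bases with Ergic1 on the opposite strand.

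The promoters of Errfi1 and Dusp1 are shown because their transcripts were lowest at the same time, beside those of Dusp6 and Spred1, which rose. Each line holds the 250 bases before an annotated start of transcription, from RefSeq on GRCm38.p6. Windows of 8 of the 10 members were searched. Erbb3 had no sequence available, and Spry4 was left out of the search. The windows are chr4:150854820-150855069 (plus strand, the downstream one of 2 starts of Errfi1), chr17:26508473-26508722 (minus strand), chr10:99262981-99263230 (plus strand) and chr2:117120821-117121070 (plus strand). Capitals mark matches on either strand to the cAMP response element TGACGTCA, its half-site TGACG and the E-box CACGTG, the motifs found in these windows.
Errfi1: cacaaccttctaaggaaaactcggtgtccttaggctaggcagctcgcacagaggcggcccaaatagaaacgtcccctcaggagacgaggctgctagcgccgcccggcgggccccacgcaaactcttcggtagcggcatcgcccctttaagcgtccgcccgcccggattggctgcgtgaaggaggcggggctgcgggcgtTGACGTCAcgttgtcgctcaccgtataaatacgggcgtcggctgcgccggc
Dusp1: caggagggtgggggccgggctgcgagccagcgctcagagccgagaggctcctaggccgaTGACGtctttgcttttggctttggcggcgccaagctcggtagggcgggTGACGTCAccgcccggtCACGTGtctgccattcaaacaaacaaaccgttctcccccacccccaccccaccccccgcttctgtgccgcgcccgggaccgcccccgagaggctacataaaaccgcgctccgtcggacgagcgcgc
Dusp6: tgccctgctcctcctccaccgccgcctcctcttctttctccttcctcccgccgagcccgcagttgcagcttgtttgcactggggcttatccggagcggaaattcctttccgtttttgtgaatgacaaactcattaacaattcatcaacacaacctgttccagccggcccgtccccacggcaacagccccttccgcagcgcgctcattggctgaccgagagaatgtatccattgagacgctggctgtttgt
Spred1: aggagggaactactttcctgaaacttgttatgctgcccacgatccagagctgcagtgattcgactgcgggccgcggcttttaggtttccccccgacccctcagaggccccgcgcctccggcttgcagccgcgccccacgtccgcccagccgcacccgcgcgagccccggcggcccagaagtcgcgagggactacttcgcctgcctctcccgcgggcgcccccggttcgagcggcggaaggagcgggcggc

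The full cAMP response element, the palindrome bound by CREB and related factors, lay 51 bases before the start in the Errfi1 window and 143 bases before the start in the Dusp1 window. No other window of the 9 searched for members held it, including that of the upstream start of Errfi1. Of 32851 promoter windows of this length, 508 (1.55%) held it, and 17.8% held the half-site TGACG, which each full element contains on both strands. A further half-site lay 191 bases before the start of Dusp1, and single half-sites lay at 171 bases in Erbb2 and 51 bases in Spred2. The Dusp1 window also held the E-box CACGTG at 126 bases (6.02% of all windows), and the Egfr window held the ETS motif CCGGAAG at 120 bases (6.91%). Searches for the FOXO motif GTAAACA (3.17% of all windows) and the AP-1 motif TGANTCA (6.75%) gave no match in the 9 windows searched. A match describes letters only, and no binding was measured. A link of these motifs with the direction of change was not tested.

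Dusp6 encodes the cytoplasmic phosphatase selective for ERK (ENSMUSG00000019960, chr10:99263231-99267489, plus strand). It was higher in refed livers at each time from 60 min on. At 60 min its normalised read count was 2156, 2839 and 3140 in refed livers, 1492, 952 and 1234 in caged food livers and 1192, 926 and 1517 in fasted livers. The refed libraries did not overlap with either of the other groups. The mean of 2712 ± 504 in refed livers was 2.25-fold that of fasted livers, 1212 ± 296 (SD, n = 3 each; log2 fold change 1.17 ± 0.27, limma adjusted p = 0.00451), and 2.22-fold that of caged food livers (1.15 ± 0.27, limma adjusted p = 0.00572).

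Later, Dusp6 stayed near this level in refed livers. At 120 min they had 2987, 2134 and 1759 (0.91 ± 0.27 against fasted, limma adjusted p = 0.0227), a call that was lost without fasted replicate 1 or 2 or refed 120 min replicate 1 or 2 (limma adjusted p of 0.0503 to 0.127). Caged food livers at 120 min had 1218, 1928 and 944, which overlapped with the refed ones (0.78 ± 0.27, limma adjusted p = 0.0609). At 240 min the values were 2804, 2070 and 1852 in refed livers and 852, 876 and 991 in caged food livers, a 2.44-fold difference without overlap (1.29 ± 0.27, limma adjusted p = 8.40e-04; without the 2 libraries of conflicting labels 1.37 ± 0.33, 0.00587). Against fasted livers the difference at 240 min was 0.89 ± 0.27 (limma adjusted p = 0.0162; without those 2 libraries 1.02 ± 0.31, 0.0205). It was not called without fasted replicate 2 (0.0957) or refed 240 min replicate 1 (0.0997).

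At 30 min Dusp6 was just outside the threshold, with 1760, 2470 and 3114 in refed livers against 1192, 926 and 1517 in fasted livers (1.004 ± 0.27, limma adjusted p = 0.0564). Without refed 30 min replicate 1, the library with pancreas markers, it was called (1.22, limma adjusted p = 0.0379). It was also called with only the groups compared in the fit (limma adjusted p = 0.0375). Caged food livers at 30 min had 1138, 1900 and 1879, and refed livers did not differ from them by the test (0.58 ± 0.27, limma adjusted p = 0.628). Ordered by mean, the 4 refed groups came highest, at 2242 to 2712, and caged food 240 min lowest, at 906, while each group overlapped with its neighbour in that order.

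Spred1 encodes a Sprouty-related inhibitor that brings neurofibromin to Ras (ENSMUSG00000027351, chr2:117121374-117182279, plus strand). Its level after refeeding was highest at 240 min, with 968, 708 and 869 normalised read counts in refed livers, 433, 517 and 515 in caged food livers and 447, 426 and 453 in fasted livers. The refed libraries did not overlap with the others. The mean of 848 ± 131 in refed livers was 1.90-fold that of fasted livers, 442 ± 14.2 (SD, n = 3 each; 0.93 ± 0.18, limma adjusted p = 4.83e-04), and 1.73-fold that of caged food livers (0.79 ± 0.18, limma adjusted p = 0.00192). Without the 2 libraries of conflicting labels these were 0.90 ± 0.21 (limma adjusted p = 0.00311) and 0.68 ± 0.22 (0.0366).

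Against fasted livers Spred1 was also called at 60 min, with 516, 758 and 1040 in refed livers (0.74 ± 0.18, limma adjusted p = 0.00698), and at 120 min, with 718, 869 and 569 (0.68 ± 0.18, limma adjusted p = 0.0117). The first call was lost without refed 60 min replicate 3 (0.50, limma adjusted p = 0.0744) and with only the groups compared in the fit (0.0679), and the second without refed 120 min replicate 2 (0.53, limma adjusted p = 0.0855). Caged food livers at 60 min had 614, 658 and 586, each above each fasted liver, and were not called (0.48 ± 0.18, limma adjusted p = 0.322). Nor was refed against caged food at 60 min (0.26 ± 0.18, limma adjusted p = 0.413) or 120 min (0.50 ± 0.18, limma adjusted p = 0.0732). In order of mean level, fasted livers came lowest and refed 240, 60 and 120 min highest, at 848, 771 and 719, and the only neighbours that did not overlap were caged food 60 min, above, and refed 30 min.

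Spred2, of the same family (ENSMUSG00000045671, chr11:19924375-20024026, plus strand), had the opposite sign. At 60 min it had 371, 512 and 491 normalised read counts in refed livers, 600, 534 and 527 in caged food livers and 529, 570 and 659 in fasted livers. Refed values lay below all the others. The mean was 458 ± 76.1 in refed and 586 ± 66.5 in fasted livers (SD, n = 3 each; -0.36 ± 0.12, limma adjusted p = 0.0443). This was the only called difference of Spred2, and it was not called without refed 60 min replicate 1 (limma adjusted p = 0.262), fasted replicate 2 (0.0937) or fasted replicate 3 (0.233), nor with a replicate block (0.0599), with no filter on low values (0.0709) or with only the groups compared in the fit (0.164). The difference from caged food livers was -0.28 ± 0.12 at 60 min (limma adjusted p = 0.125), -0.32 ± 0.12 at 120 min (0.0796) and -0.20 ± 0.12 at 240 min (0.226).

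Spry4 encodes a Sprouty inhibitor of Ras to ERK signalling (ENSMUSG00000024427, chr18:38586247-38601415, minus strand). It was called in 1 comparison, refed against caged food livers at 240 min. Its normalised read count there was 596, 441 and 429 in refed livers, 139, 222 and 165 in caged food livers and 238, 195 and 300 in fasted livers. The 2.80-fold difference (1.48 ± 0.39, limma adjusted p = 0.00591; without the 2 libraries of conflicting labels 1.42 ± 0.49, 0.0455) lies between a refed group above and a caged food group mostly below the fasted one. Neither was called against fasted livers (1.003 ± 0.39 in refed, limma adjusted p = 0.0626, and -0.48 ± 0.39 in caged food, 0.995). With only the groups compared in the fit, the refed difference from fasted livers was called (limma adjusted p = 0.00317).

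Earlier values of Spry4 were uneven. At 30 min it had 414, 563 and 644 in refed livers, above all fasted ones, and was not called (1.14 ± 0.39, limma adjusted p = 0.184). That difference was called with only the groups compared in the fit (limma adjusted p = 0.0139). At 60 min the refed livers had 242, 621 and 729, and without the first of these the difference from fasted livers was called (1.48, limma adjusted p = 0.0131, in place of 0.99 and 0.111). Spry2, its relative (ENSMUSG00000022114, chr14:105891947-105896819, minus strand), was the lowest feedback gene, at 36 to 98 normalised read counts in all libraries. Refed livers averaged 68.7 ± 6.66, 54.7 ± 10.02, 48.7 ± 2.31 and 48.0 ± 7.21 at 30, 60, 120 and 240 min, and fasted livers 52.7 ± 11.02 (SD, n = 3 each). No comparison of Spry2 was called, with log2 fold changes of -0.17 to 0.39 and a standard error of 0.26. For Spred2, Spry4, Spry2 and Erbb2 all neighbouring groups overlapped in the order of their levels.

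At 240 min some marker transcripts of other liver cells also differed. Stellate cell markers summed to 18992 to 23978 in refed livers, 24496 to 28213 in caged food livers and 26693 to 28773 in fasted livers. Of these 10 markers, 3 were called lower against fasted livers and 0 against caged food livers. Sinusoidal endothelial markers summed to 22758 to 23497 in refed livers, 25962 to 26745 in caged food livers and 25505 to 28978 in fasted livers, with 2 of 10 called lower against fasted and 4 of 10 against caged food livers. Of 10 hepatocyte markers, 1 was called lower against fasted and 2 against caged food livers. Of all genes, 11.4% were called lower against fasted and 12.4% against caged food livers at this time. Of 7 tested cholangiocyte markers 2 were called higher and 1 lower against caged food livers, and their sums overlapped, at 1539 to 1621 in refed and 1363 to 1665 in caged food livers. Of Kupffer cell, leukocyte, erythroid and pancreas markers none was called at 240 min. Of all marker genes used, the pancreatic Amy2a5 was the only one at 0 in all 27 libraries. The part of these cells in the members' values was not tested.

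For each member the 3 genes with the most similar pattern were found by Pearson's r of the log2 values over all 27 libraries, among 11163 genes with a mean of at least 50. These r describe libraries that share groups and carry no test. Erbb3 had the closest companions, Khnyn (r = 0.967), Sesn2 (0.961), a stress-induced inhibitor of mTORC1, and Fbxo21 (0.957). Errfi1 was most like Pck1 (0.908), the gene of the gluconeogenic enzyme PEPCK, Ube2h (0.899) and Mfsd2a (0.896), a transporter of lysolipids. Dusp1 was most like Arhgap18 (0.861), Pcbp2 (0.855) and Sgms2 (0.831).

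Among the genes that rose, Dusp6 was most like Naif1 (r = 0.863), Ocel1 (0.862) and Kbtbd8 (0.847), and Spred1 was most like Ints8 (0.896), Chordc1 (0.892) and Ncbp2 (0.878). Spry4 shared Naif1 (0.774) with Dusp6, after Trib1 (0.805) and Hexim1 (0.797). Between the members Spry4 and Dusp6 themselves r was 0.806, above that of Spry4 with each of these genes. The genes with few or no calls had looser companions: Tns2 (0.751), Ppargc1b (0.744) and Foxk1 (0.720) for Spred2, Syde1 (0.705), Zfp46 (0.671) and Prdm11 (0.670) for Spry2, Slc38a1 (0.694), Hmox1 (0.693) and Tnfrsf21 (0.676) for Egfr, and Rcn3 (0.678), Gpm6a (0.674) and Cbx6 (0.646) for Erbb2.

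Other genes of the pathway were read from lists, in each of which no gene was called in caged food against fasted livers at any time. Their counts are set beside the shares of all genes called, which against fasted livers were 1.31%, 7.26%, 7.95% and 12.9% higher and 0.326%, 3.75%, 6.13% and 11.4% lower at 30, 60, 120 and 240 min of refeeding. Against caged food livers these shares were 0.207%, 6.73%, 5.98% and 14.6% higher and 0.0690%, 4.18%, 5.30% and 12.4% lower. Counts of 1 to 3 genes are given as values, and nothing about a list is read from them. Of 11 ErbB ligand genes 7 were tested, and 1 was called, Nrg4, a neuregulin gene whose product binds ErbB4. It was lower in refed livers at 120 min, at 192 ± 27.8, than in fasted livers, at 326 ± 38.0 (SD, n = 3 each; -0.77 ± 0.19, limma adjusted p = 0.00811), and than in caged food livers (-0.89 ± 0.19, limma adjusted p = 0.00302), where 6.13% and 5.30% of all genes were lower in these comparisons. Tgfa was the most abundant ligand gene per kb in fasted liver, at 232 ± 19.3, ahead of Nrg4 at 53.6 ± 6.26 and Btc at 23.5 ± 2.65, and it was not called. Egf had 8.10 ± 3.15 per kb.

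Of 11 genes of Erbb4 and direct negative regulators of the receptors, all tested, 1 was higher and 1 lower at 30 min of refeeding against fasted livers, 2 higher and 0 lower at 60 min, 1 and 1 at 120 min, and 3 and 1 at 240 min. Against caged food livers the counts were 0 and 0, 2 and 0, 1 and 1, and 2 and 2. At 240 min the background was 12.9% higher and 11.4% lower against fasted livers. Cblb, a ubiquitin ligase that marks receptors for degradation, fell at 240 min to 316 ± 46.2 in refed livers, against 583 ± 29.9 in fasted livers (-0.89 ± 0.11, limma adjusted p = 4.66e-06). Socs5 (0.68 ± 0.11, limma adjusted p = 1.09e-04) and Socs4 (0.64 ± 0.11, limma adjusted p = 2.32e-04), adaptors of ubiquitin ligases that act on EGFR, rose at 60 min against fasted livers. Lrig3, of a family of membrane proteins that includes receptor inhibitors, fell at 30 min against fasted livers (-0.54 ± 0.13, limma adjusted p = 0.0275). Against caged food livers it was not called at 30 min (-0.50 ± 0.13, limma adjusted p = 0.117).

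Of 20 adaptor and Ras to ERK cascade genes, all tested, none was called at 30 or 60 min of refeeding against fasted livers, 1 was lower at 120 min, and 4 were higher and 2 lower at 240 min. Against caged food livers 0 and 0, 1 and 1, 0 and 1, and 6 and 3 were higher and lower at the 4 times. At 240 min, where most of these calls lay, 12.9% of all genes were higher and 11.4% lower against fasted livers, and 14.6% and 12.4% against caged food livers. Gab1, the docking protein that links receptors to SHP2 and PI3-kinase, fell at 120 min to 577 ± 72.5 in refed livers, against 908 ± 25.0 in fasted livers (-0.66 ± 0.12, limma adjusted p = 5.38e-04). The adaptor gene Shc1 (0.31 ± 0.06, limma adjusted p = 0.00120) and the MEK gene Map2k1 (0.24 ± 0.07, 0.0107) rose at 240 min against fasted livers.

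Of 9 other MAP kinase phosphatase genes 8 were tested. Against fasted livers 1, 2, 1 and 1 were higher and 0, 1, 0 and 0 lower in refed livers at 30, 60, 120 and 240 min, and against caged food livers 0, 1, 0 and 1 were higher and none lower. The background of higher calls against fasted livers was 1.31%, 7.26%, 7.95% and 12.9%. Dusp8, a phosphatase of JNK and p38, rose at 30 min to 115 ± 46.8 in refed livers, against 23.3 ± 6.66 in fasted livers (2.22 ± 0.52, limma adjusted p = 0.0275). Dusp7, a close relative of Dusp6, rose at 60 min (0.55 ± 0.14, limma adjusted p = 0.0135) and 120 min (0.56 ± 0.14, limma adjusted p = 0.00902), and Dusp16 rose at 240 min (0.41 ± 0.10, limma adjusted p = 0.00491). Dusp10 fell at 60 min (-0.58 ± 0.17, limma adjusted p = 0.0295). Against caged food livers Dusp8 at 30 min, Dusp10 at 60 min and Dusp7 at 120 min were not called (limma adjusted p = 0.296, 0.344 and 0.0623). Spry1 and Spred3, the 2 other family members in the table, were not called in any comparison.

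Transcription factors and immediate targets of ERK, 19 tested of 20, had 1, 2, 2 and 3 genes higher and 0, 1, 2 and 2 lower in refed than in fasted livers at 30, 60, 120 and 240 min. Against caged food livers 0, 3, 1 and 3 were higher and 0, 2, 2 and 2 lower. At 240 min the background was 12.9% higher and 11.4% lower against fasted livers, and 14.6% and 12.4% against caged food livers. Phlda1, a target of growth factor signalling, rose at 30 min to 5864 ± 697 in refed livers, against 790 ± 130 in fasted livers (2.90 ± 0.40, limma adjusted p = 1.92e-04). Caged food livers at 30 min had 2567 ± 1451 of Phlda1 (1.54 ± 0.40 against fasted, limma adjusted p = 0.294), and the difference of refed from caged food livers was not called at 30 min (1.36 ± 0.40, limma adjusted p = 0.238). The ETS factor gene Etv5 rose at 120 min (1.05 ± 0.20, limma adjusted p = 7.09e-04) and 240 min (1.18 ± 0.20, limma adjusted p = 1.13e-04). Ets2 rose at 60 min (0.49 ± 0.11, limma adjusted p = 0.00337), and Elk4 fell at 240 min (-0.66 ± 0.09, limma adjusted p = 6.49e-06).

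Genes known to be induced by glucocorticoids, as Errfi1 and Dusp1 are, had 0, 4, 8 and 8 of 14 lower and 0, 0, 0 and 1 higher in refed than in fasted livers at 30, 60, 120 and 240 min. The background of lower calls was 0.326%, 3.75%, 6.13% and 11.4%. Against caged food livers 0, 7, 6 and 8 were lower and none higher (background of lower calls 0.0690%, 4.18%, 5.30% and 12.4%). Their median log2 fold change against fasted livers was 0.30, -0.59, -0.85 and -0.77 at the 4 times. The list was drawn up with results of these data known and is not independent evidence of a direction.

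The genes named from this list were picked by lowest p or by 4 or more calls, so they show its clearest falls. Fkbp5 and Zbtb16 were called in 0 of the 12 comparisons, and Tsc22d3, Ddit4 and Lcn2 in 1 each. At 120 min Klf9, a transcription factor gene, had 3830 ± 187 in refed livers and 7130 ± 1015 in fasted livers (-0.89 ± 0.13, limma adjusted p = 6.61e-05). Zfp36, whose product destabilises mRNAs, then had 2392 ± 214 in refed livers and 5005 ± 474 in fasted livers (-1.06 ± 0.20, limma adjusted p = 6.26e-04). The clock gene Per1 (-1.85 ± 0.37, limma adjusted p = 0.00139), the metallothionein gene Mt2 (-1.79 ± 0.37, 0.00177), Cebpd (-1.25 ± 0.34, 0.0147) and the tyrosine aminotransferase gene Tat (-1.15 ± 0.22, 8.78e-04) fell too at 120 min against fasted livers. Nfkbia, the inhibitor of NF-kappa-B, was lowest at 60 min, at 1086 ± 15.1 in refed livers and 1848 ± 25.6 in fasted livers (-0.77 ± 0.12, limma adjusted p = 1.28e-04).

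**Figure D4:**
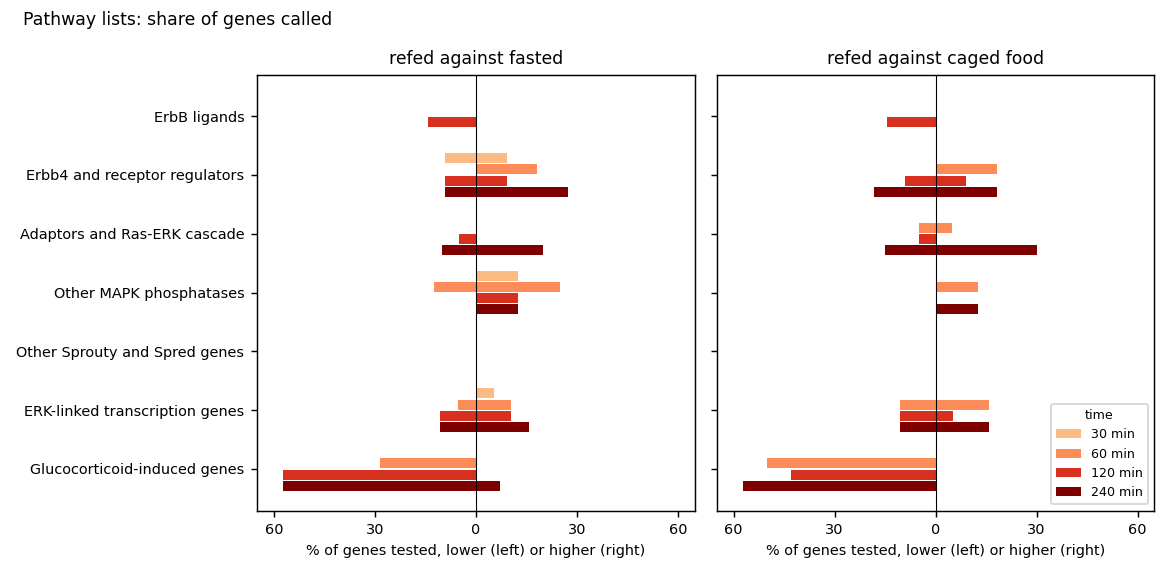
Share of the tested genes of each pathway list (in %) called lower (bars to the left) or higher (bars to the right) in refed livers against fasted livers and against caged food livers, at 30, 60, 120 and 240 min from light to dark. The glucocorticoid-induced genes have the longest bars, to the left, with 8 of 14 lower at 120 and 240 min against fasted livers, and the other Sprouty and Spred genes have none.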

How the data were processed

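Per the labels, RNA of mouse liver was made into stranded TruSeq mRNA libraries. Per the submitters' processing notes, STAR 2.4.0a, featureCounts 1.4.5-p1 of Subread and the mm10 (GRCm38) genome were used. The authors deposited 1 table with a score per gene and library, namely read counts scaled by 1 factor per library and rounded; the scaling method is not given in the sources used here. Totals were 40654573 to 50037562 per library, 1 read was worth 0.775 to 1.69, and 45143 of 45706 identifiers matched GENCODE M21, the source of coordinates and exon lengths. The 37 mitochondrial genes were at 0. The series text speaks of 60 samples, and those beyond 27 were not analysed here.

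Of these genes, 15932 reached a value of 10 in 3 or more libraries and were tested as log2 of the value plus 1, which understates changes of low genes. Limma 3.58.1 in R 4.3.3, with a mean-variance trend, was fitted to 9 group means (18 residual degrees of freedom) for 12 comparisons and 1 F test, with Benjamini-Hochberg adjustment over all genes tested. The model was run on simulated data, where it missed many of the smaller changes, so a gene not called is not shown to be unchanged. P-values set a difference of group means against the spread between libraries within groups, pooled over all 9 groups. That spread may be partly technical. All 10 members are described, with up to 4 genes of lowest p per pathway list, those called in 4 or more comparisons, and the 3 non-member genes most like each member. Of the genes that met this rule, 1 is not reported here. Members and lists were chosen with earlier results of these data known. Replicate numbers were not taken to pair libraries (mean residual correlation -0.00944 over 108 same-number pairs, lowest -0.227). Results were recomputed under quantile normalization, with a pseudocount of 5, with no filter, with a replicate block, with only the groups compared, leaving out each replicate, the 3 libraries that stood apart or the 2 of conflicting labels, and grouping those 2 by the treatment label. Python 3.11.15, numpy 2.4.6, pandas 2.3.3 and matplotlib 3.10.9 were used.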

Additional observations from a re-analysis of the deposited data

Results flagged for a closer look

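For 2 of the 10 genes the refed minus caged food difference itself varied over the times, by the limma F test adjusted over all genes, which called 9.97% of them. Erbb3 (limma adjusted p = 6.25e-04) had a log2 difference of -0.33 at 30 min, -1.65 at 60 min, -1.29 at 120 min and -1.21 at 240 min. Errfi1 (limma adjusted p = 0.0287) had 0.17 at 30 min, -0.41 at 60 min, -1.31 at 120 min and -0.88 at 240 min. The call of Errfi1 was lost in several alternative fits. Among them were those without the 3 libraries that stood apart (limma adjusted p = 0.0893) or the 2 of conflicting labels (0.0549).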

How the results depend on the processing

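For single members, alternatives were run on the comparisons with an unadjusted p under 0.05 and on the F test of Erbb3 and Errfi1, not on the others. Among these no direction changed, and 496 recomputed values kept their side of the threshold, 44 lost and 13 gained a call. With the 2 libraries of conflicting labels grouped by treatment, called genes numbered 0 in refed 240 min against fasted, 1 in caged food 240 min against fasted, 1 in refed against caged food at 240 min and 43 in the F test, and called members 0 in the refed comparisons and the F test. The cause was not tested. Fitting only the groups compared gave 392 genes and 2 members (refed 30 min against fasted), 2 members (refed 60 min against fasted), 1, 0 and 0 genes (caged food 30, 60 and 120 min against fasted), and 20 and 478 genes (refed against caged food at 30 and 60 min), with fewer libraries in each fit. Without the 3 libraries that stood apart, 1 member was called in refed 30 min against fasted, 14 genes in caged food 60 min against fasted, 20 genes in refed against caged food at 30 min, and 1 member in the F test. Caged food 60 min against fasted had 19 genes with quantile normalization, 14 with no filter and 20 with the replicate block, which changed 1 member call, that of Spred2 at 60 min. With no filter, caged food 240 min against fasted had 1 gene and the F test 1 member, as it had without the 2 libraries of conflicting labels. Leaving out 1 replicate, called genes ranged from 89 to 200, 1132 to 1556, 1501 to 1838 and 2586 to 3405 in refed 30, 60, 120 and 240 min against fasted, from 2 to 5, 2 to 34, 0 to 9 and 0 to 0 in caged food against fasted, from 8 to 31, 1210 to 1700, 1112 to 1504 and 3041 to 4011 in refed against caged food, and from 1040 to 1664 in the F test. Called members ranged from 0 to 1, 3 to 4, 2 to 4 and 2 to 4 in refed against fasted, from 0 to 0, 2 to 2, 2 to 5 and 4 to 6 in refed against caged food, and from 1 to 2 in the F test. Depth limits the low genes most: Spry2 had 36 to 98 and Erbb2 70 to 149 normalised read counts.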
